A study of Mus musculus with 6 samples.

Results

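Later-intron distal H3K56ac peaks are the peaks of mouse embryonic stem cells (mESCs) that lie inside protein-coding genes, away from their starts and beyond their first intron. Acetylation of lysine 56 of histone H3 (H3K56ac) was profiled by chromatin immunoprecipitation and sequencing, and the members were selected on measured values, namely the positions and widths of the merged peaks. A member was over 320 bp and under 3000 bp wide, had its midpoint more than 3 kb from every transcription start site (TSS) of a protein-coding gene, and lay in no exon. It lay in the body of a protein-coding gene but not in intron 1 of the longest protein-coding transcript of any gene. The rule was met by 550 of 11106 peaks, a share of 4.95%. Other classes of distal peaks with the same widths served for comparison, 373 in first introns and 1482 outside protein-coding genes, the latter called intergenic.

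The cells were V6.5 mESCs, an undifferentiated line kept on feeder cells with LIF, and all of them received a lentivirus with an shRNA. In the Scramble group the shRNA was a non-targeting control, and in the *Sirt6* KD group it targeted *Sirt6*, a histone deacetylase that removes H3K56ac. There were 2 H3K56ac libraries and 1 input library for Scramble and the same for *Sirt6* KD. The positions were merged over all libraries and carry no count, height or library of origin, so no peak is assigned here to Scramble or *Sirt6* KD and no value takes read depth into account. The paper lists more peaks for each *Sirt6* KD library than for each Scramble library. What each group contributed to the merged peaks was not tested.

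H3K56ac sits on the lateral surface of the nucleosome, is written by CBP/p300 in mammals and marks new nucleosomes, active promoters and enhancers. Introns can hold enhancers that act on their own gene or on a neighbour, and internal promoters of shorter or noncoding transcripts. In mESCs, enhancers are bound by POU5F1 with SOX2, by ESRRB, TFCP2L1 and KLF factors, while AP-1, the FOS and JUN dimer, acts at inducible enhancers and CTCF at chromatin loop anchors.

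Motifs of these factors were searched on both strands of the central 400 bp of each peak. The AP-1 motif was TGACTCA or TGAGTCA, which are each other's reverse complement, the octamer bound by POU5F1 was ATTTGCAT, the ESRRB motif TCAAGGTCA and the KLF motif GGGTGTGG. The TFCP2L1 motif was CCAG or CCGG, 6 bases of any kind, and CCAG or CCGG again, and CTCF was searched by its core consensus. A match shows letters in a window and not a bound site.

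Among the members, 433 held none of the 6 motif kinds, 108 held 1 kind, 7 held 2 kinds and 2 held 3 kinds. No peak of the first-intron or intergenic classes held 3 kinds, and 6 of all 11106 peaks did. The members with 3 kinds lay in introns of *Hhat*, which encodes the acyltransferase of Hedgehog proteins, and *Dlgap1*, a scaffold gene of the postsynaptic density. Their sequences are shown because they carry the densest sets of motifs, on the plus strand of GRCm38 with the matches in capitals. The *Hhat* member had an AP-1 match, an octamer and a TFCP2L1 match in the first stretch and another AP-1 match in the second, and the *Dlgap1* member had a CTCF, a TFCP2L1 and an AP-1 match in that order.
Hhat, chr1:192745317-192745519: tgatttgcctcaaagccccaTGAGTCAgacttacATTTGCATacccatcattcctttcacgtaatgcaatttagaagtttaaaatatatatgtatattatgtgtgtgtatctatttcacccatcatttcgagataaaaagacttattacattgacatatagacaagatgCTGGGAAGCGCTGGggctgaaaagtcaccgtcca
Hhat, chr1:192745624-192745670: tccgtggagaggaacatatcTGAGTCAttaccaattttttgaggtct
Dlgap1, chr17:70738386-70738643: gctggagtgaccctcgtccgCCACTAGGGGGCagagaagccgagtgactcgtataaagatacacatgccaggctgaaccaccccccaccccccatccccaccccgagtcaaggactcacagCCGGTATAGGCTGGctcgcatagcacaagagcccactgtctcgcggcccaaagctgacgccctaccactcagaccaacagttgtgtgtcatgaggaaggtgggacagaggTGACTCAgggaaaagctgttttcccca

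The *Hhat* peak (chr1:192745014-192745920) was 907 bp wide in intron 3 of 11, with its nearest other peak 288725 bp away. Its first AP-1 match and its octamer began at -130 and -116 bp from the midpoint, and the midpoint was 104 bp from the start of the small nuclear RNA gene Gm22265. The *Dlgap1* peak (chr17:70737501-70739391) was 1891 bp wide in intron 8 of 13, and its CTCF match was the only one among all members.

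Of the 7 members with 2 motif kinds, 6 are shown, each with the matches in capitals on the plus strand. They lay in *Rbks* (ribokinase), *Stox2*, *Gabrg3* (a subunit of the GABA-A receptor), *Sema4b* (a semaphorin), *Cdh1* (E-cadherin, the adhesion molecule of epithelia and mESC colonies) and 6430531B16Rik. The pair was AP-1 with the octamer in *Rbks* and *Stox2*, AP-1 with KLF in *Gabrg3* and *Sema4b*, and AP-1 with TFCP2L1 in *Cdh1* and 6430531B16Rik, both of which are shown in separate stretches because their matches lay far apart.
Rbks, chr5:31634795-31634922: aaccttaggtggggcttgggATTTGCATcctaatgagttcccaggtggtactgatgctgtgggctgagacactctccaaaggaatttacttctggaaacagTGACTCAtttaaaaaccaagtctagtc
Stox2, chr8:47324239-47324385: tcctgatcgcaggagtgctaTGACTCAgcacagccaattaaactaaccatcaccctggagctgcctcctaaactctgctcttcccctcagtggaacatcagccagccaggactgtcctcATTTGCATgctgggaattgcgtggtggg
Gabrg3, chr7:56837404-56837469: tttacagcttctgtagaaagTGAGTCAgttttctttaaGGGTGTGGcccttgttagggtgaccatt
Sema4b, chr7:80207658-80207779: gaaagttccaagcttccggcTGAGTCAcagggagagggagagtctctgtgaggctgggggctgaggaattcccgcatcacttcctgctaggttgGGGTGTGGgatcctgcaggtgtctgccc
Cdh1, chr8:106628765-106628818: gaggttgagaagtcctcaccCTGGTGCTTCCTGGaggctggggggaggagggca
Cdh1, chr8:106629106-106629152: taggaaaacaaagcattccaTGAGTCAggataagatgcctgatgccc
6430531B16Rik, chr7:139974453-139974499: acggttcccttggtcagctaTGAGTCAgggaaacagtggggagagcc
6430531B16Rik, chr7:139974764-139974817: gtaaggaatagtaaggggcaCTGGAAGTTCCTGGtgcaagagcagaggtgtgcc

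The ESRRB motif was found in 4 members, which are shown here. In *Samd14* the match was on the minus strand, so that its capitals are the reverse complement. None of these 4 members held another of the 6 motif kinds.
Ankrd45, chr1:161151450-161151498: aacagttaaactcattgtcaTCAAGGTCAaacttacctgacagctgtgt
Kazn, chr4:142220531-142220579: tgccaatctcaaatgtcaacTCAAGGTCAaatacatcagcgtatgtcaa
Samd14, chr11:95024288-95024336: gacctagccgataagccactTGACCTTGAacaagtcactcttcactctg
Zfyve1, chr12:83578176-83578224: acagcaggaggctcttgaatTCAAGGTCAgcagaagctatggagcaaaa

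Also shown are the AP-1 matches in *Utrn*, which encodes utrophin, the dystrophin-related protein, and in *Tet2*, a 5-methylcytosine dioxygenase. These stretches, like those with the ESRRB motif, were chosen after their values were seen. The paper places its downstream utrophin enhancer in the first intron of *Utrn*, and the match shown lies elsewhere in the gene.
Utrn, chr10:12610059-12610105: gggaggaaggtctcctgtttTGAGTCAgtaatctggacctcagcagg
Tet2, chr3:133506428-133506474: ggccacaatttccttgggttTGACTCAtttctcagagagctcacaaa

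The AP-1 motif was the most frequent of the 6 kinds, in 47 of 550 members (8.55%, 95% Wilson interval 6.49 to 11.2%, which covers counting error only, as do all intervals given here). First-intron peaks held it in 9.65% (7.05 to 13.1%) and intergenic peaks in 9.11% (7.75 to 10.7%). The shares differed by less than their errors (two-sided Fisher's exact test, p = 0.560 and 0.727; adjusted p = 0.869 and 0.929 over 23 tests by Benjamini-Hochberg). Over all 11106 peaks, most of them near a TSS, the share was 5.83%. The 6 kinds differ in length and in how many letter forms they accept, and their order by frequency does not take this into account.

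TFCP2L1 matches were found in 40 members (7.27%, 5.39 to 9.75%), against 6.97% (4.80 to 10.0%) of first-intron and 7.96% (6.69 to 9.45%) of intergenic peaks. KLF matches were found in 21 members (3.82%, 2.51 to 5.77%), against 2.95% (1.65 to 5.20%) and 4.12% (3.22 to 5.25%). Neither motif passed the test in either comparison (the smallest p was 0.583 by Fisher's exact test, adjusted p = 0.869). Over all 11106 peaks the TFCP2L1 share was 11.8% (11.2 to 12.4%), above that of the members and the highest of the 6 kinds, and the KLF share was 3.74%.

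The octamer was in 15 members (2.73%, 1.66 to 4.45%), of which 2 lay in *Stox2*, and the others in *Dst*, *Nrp2*, *Eif4e2*, *Agap1*, *Hhat*, *Rbks*, *Wdfy3*, *Nav2*, *Zfhx3*, *Wwox*, *Ebf1*, *Skap1* and *Ss18*. Only 5 first-intron peaks held it (1.34%, 0.574 to 3.10%), a difference that did not pass (p = 0.174 by Fisher's exact test, adjusted p = 0.502). The ESRRB motif showed the opposite order, with 4 members (0.727%, 0.283 to 1.85%) against 8 first-intron peaks (2.14%, 1.09 to 4.17%; p = 0.0774 by Fisher's exact test, adjusted p = 0.297). In windows of 1000 bp the octamer difference was -1.70 percentage points, members minus first-intron peaks. Intergenic peaks were between the intronic classes for both motifs in the central 400 bp, at 2.16% and 1.08%, and all 11106 peaks were at 1.52% and 1.01%. A SOX motif (CATTGT) up to 3 bases before ATGCAAA was in the central 400 bp of no peak, member or other.

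The matches were spread over the central window rather than gathered at the midpoint. Of 49 AP-1 matches in members, 22 lay within 100 bp of the midpoint, and the median distance was 114 bp. For TFCP2L1, 22 of 42 matches lay that near, with a median of 82.5 bp. Repeat-masked bases held 6 of the AP-1, 8 of the TFCP2L1 and 4 of the 16 octamer matches. In 1100 windows of the same length centred 3000 bp to either side of the members, the AP-1 share was 7.09% (5.72 to 8.76%), the octamer share 1.82% (1.18 to 2.79%) and the TFCP2L1 share 4.36% (3.31 to 5.74%), each below the share in the members. The KLF share was 4.64% (3.54 to 6.04%), the ESRRB share 0.909% (0.495 to 1.67%) and the CTCF share 0.364% (0.141 to 0.931%), each above it. The flank shares are given without a test, since the windows share their introns with the members.

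**Figure D1:**
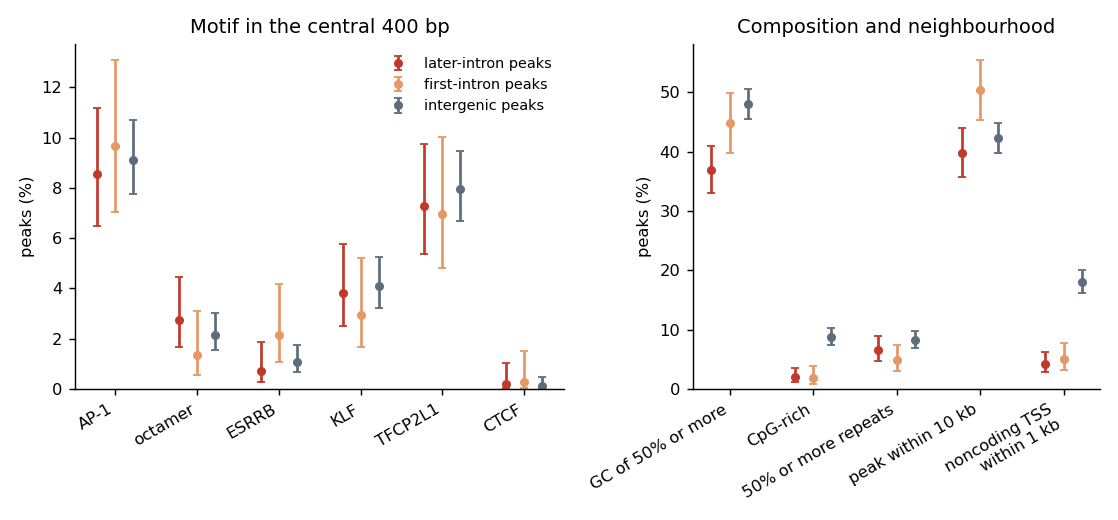
Shares of later-intron (550), first-intron (373) and intergenic (1482) peaks with each motif in the central 400 bp (left) and with each property of composition and neighbourhood (right), in percent, with 95% Wilson intervals as bars. The motif shares of the classes overlap in their intervals, while the intergenic class stands above the members for CpG-rich peaks and for noncoding TSS.

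In base composition the members were GC-poorer than intergenic peaks. Their median GC content was 48% in the central 400 bp, with quartiles of 44.2 and 51.2% and a range of 31.0 to 65.5%, against medians of 49.0% in first-intron and 49.6% in intergenic peaks. GC content of at least 50% was found in 203 members (36.9%, 33.0 to 41.0%) and 712 intergenic peaks (48%, 45.5 to 50.6%). The odds ratio was 0.633, with p = 7.74e-06 by Fisher's exact test (adjusted p = 5.93e-05). Of first-intron peaks 44.8% (39.8 to 49.8%) reached it, which did not pass after adjustment (p = 0.0199 by Fisher's exact test, adjusted p = 0.0916) and turned to a difference of 0.50 percentage points the other way in windows of 1000 bp.

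CpG-rich members, with GC content of at least 50% and an observed/expected CpG ratio over 0.6, were few. There were 11 (2.00%, 1.12 to 3.55%), as against 130 intergenic peaks (8.77%, 7.44 to 10.3%), which gave an odds ratio of 0.212 with p = 5.66e-09 by Fisher's exact test (adjusted p = 6.51e-08). First-intron peaks were at 1.88% (0.912 to 3.82%), and no difference from the members was detected (Fisher's exact test, p = 1). The median CpG ratio of the members was 0.242, against 0.248 in first-intron, 0.308 in intergenic and 0.484 in all peaks. Of intergenic peaks 268 of 1482 lay within 1 kb of a noncoding TSS, against 23 of 550 members. What such starts contribute to the GC and CpG differences from intergenic peaks was not tested.

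The member in *Kcnq1* had the highest CpG ratio of all members, 1.06, at a GC content of 55.2%. It was 1425 bp wide (chr7:143295109-143296533) in intron 11 of 15, and its midpoint was 728 bp from the start of *Kcnq1ot1*, an imprinted antisense RNA that runs against *Kcnq1*. *Kcnq1*, a potassium channel gene, held no other peak, and the nearest one was 206199 bp away. The central 200 bases of this member are shown with every CpG in capitals, beside members in the listed pluripotency genes *Esrrb* and *Tfcp2l1*. Of the *Esrrb* members the one with the lowest ratio, 0.0311, is shown. The stretches held 13 CpG in *Kcnq1*, 1 in *Esrrb* and 0 in *Tfcp2l1*.
Kcnq1, chr7:143295721-143295920: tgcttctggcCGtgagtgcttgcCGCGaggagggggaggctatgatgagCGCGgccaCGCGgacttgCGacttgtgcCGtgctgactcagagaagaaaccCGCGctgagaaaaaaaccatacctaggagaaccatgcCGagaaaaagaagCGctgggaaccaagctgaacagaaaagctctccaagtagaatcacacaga
Esrrb, chr12:86491502-86491701: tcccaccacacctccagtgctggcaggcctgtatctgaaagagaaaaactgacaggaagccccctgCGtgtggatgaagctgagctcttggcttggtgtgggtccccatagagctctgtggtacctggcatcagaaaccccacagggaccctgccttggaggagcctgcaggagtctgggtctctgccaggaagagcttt
Tfcp2l1, chr1:118642448-118642647: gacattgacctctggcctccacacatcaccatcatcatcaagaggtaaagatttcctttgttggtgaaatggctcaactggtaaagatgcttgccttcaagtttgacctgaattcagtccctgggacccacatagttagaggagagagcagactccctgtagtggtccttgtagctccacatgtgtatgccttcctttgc

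The other CpG-rich members fell into sets of different repeat cover. In *Lrp1b*, *Abcb1a* and *Pcdh7*, repeat-masked bases filled 99.2%, 100% and 84.0% of the central 400 bp, at widths of 496, 344 and 586 bp. In *Mtcl1* the window held no masked base, the CpG ratio was 0.927 and the peak was 1683 bp wide, 81166 bp from its nearest other peak. The rest lay in *Nphs1*, *Inpp5b*, *Rbm47*, *Cx3cr1*, *Ldb3* and Gm28845, with ratios of 0.661 to 0.786. Reads were kept at a single location in the authors' alignment, and what this did to masked peaks was not tested.

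Repeat-masked bases covered a median of 11% of the central window, and at least 50% of it in 36 members (6.55%, 4.77 to 8.93%). First-intron peaks were at 4.83% (3.07 to 7.50%) and intergenic peaks at 8.30% (7.0 to 9.81%), and neither difference passed (Fisher's exact test, p = 0.318 and 0.227). The cover fell towards the midpoint. Its mean was 15.1% and 17.1% in the 200-bp bins on either side of the midpoint and 26.6% and 27.8% in those at the 3-kb ends. Mean GC content rose over the same distance from 45.4% at both ends to 48% and 47.8%, and the same bins reached 48.8% and 49.1% in first-intron peaks and 49.6% and 49.7% in intergenic peaks.

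**Figure D2:**
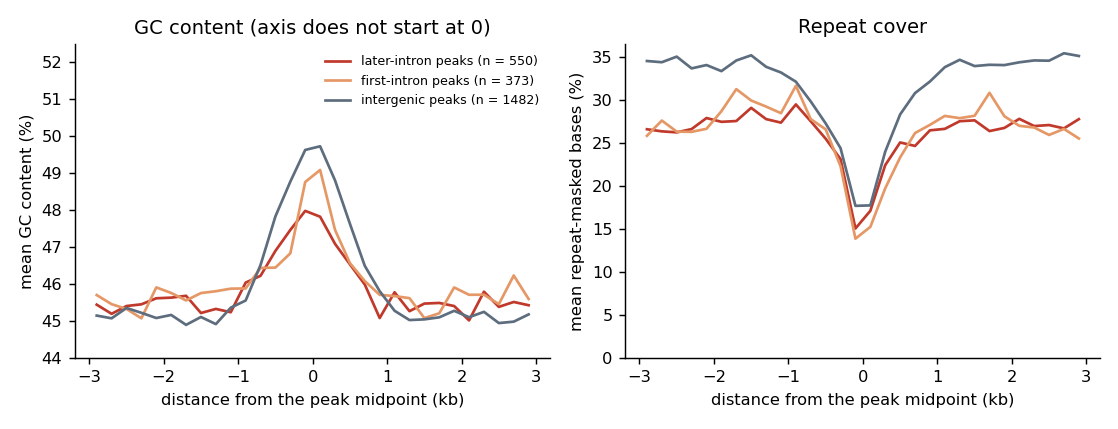
Mean GC content (left, percent, on an axis that does not start at 0) and mean share of repeat-masked bases (right, percent) in 200-bp bins against the distance from the peak midpoint in kb, 1 line for each class. The members peak at 48% GC, below the first-intron line at 49.1% and the intergenic line at 49.7%, and their repeat cover dips to 15.1%.

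**Figure D3:**
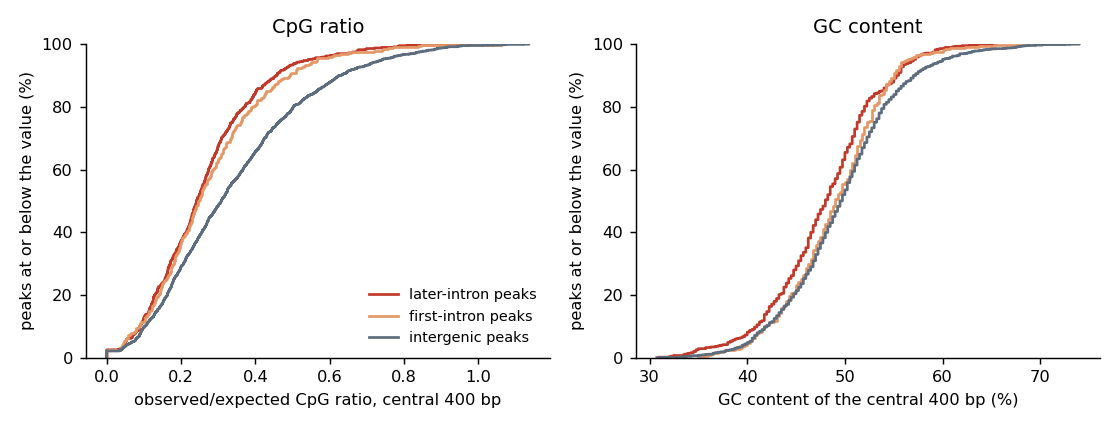
Cumulative share of peaks (percent) by observed/expected CpG ratio (left) and GC content in percent (right) of the central 400 bp, 1 line for each class. The lines of members and first-intron peaks run close together for the CpG ratio, with medians of 0.242 and 0.248, and the intergenic line lies to their right at 0.308.

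Noncoding TSS were rarer at the members than at intergenic peaks. By definition, members lie inside protein-coding genes and intergenic peaks outside them, and what this alone contributes to the difference was not tested. The midpoint lay within 1 kb of a TSS of a gene that is not protein-coding in 23 members (4.18%, 2.80 to 6.20%) and 268 intergenic peaks (18.1%, 16.2 to 20.1%), which gave an odds ratio of 0.198 with p = 4.01e-18 by Fisher's exact test (adjusted p = 9.23e-17). In first-intron peaks the share was 5.09% (3.28 to 7.82%), without a detected difference (p = 0.523 by Fisher's exact test, adjusted p = 0.869).

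Of these 23 members, 9 lay at antisense genes, among them *Kcnq1ot1*, *Nphs1os* and *Adap2os*, and 2 each at lincRNA, processed transcript, processed pseudogene, snoRNA and TEC genes. The widest was in *Gpr1*, 2339 bp (chr1:63199814-63202152), with its midpoint 275 bp from the start of *Platr12*, a noncoding transcript named for its association with pluripotency. Its GC content was 34.5%. In *Itga6*, an integrin subunit gene, the midpoint was 72 bp from the start of the lincRNA gene Gm17250, the shortest such distance among all members. CpG-rich windows were found in 3 of the 23 and in 8 of the other 527 members.

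Along genes, the members were spread unevenly over introns. The rule selects on position, so these counts are given without a test. Of 550 members, 514 lay in an intron of their host's longest transcript and 36 between the ends of the gene but outside that transcript's introns. Intron 2 held 162 members, or 1.26 for each Mb of intron sequence in which a midpoint would have met the rule (eligible sequence). Intron 3 held 79 (0.925 per Mb), introns 4 to 5 held 88 (0.840), introns 6 to 10 held 108 (0.857) and introns from 11 on held 77 (0.559).

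The last intron held 66 members, 1.12 per Mb, against 0.855 for the other later introns. All 550 members came to 0.914 per eligible Mb, close to 0.954 for intergenic peaks and below 1.92 for first-intron peaks. The midpoints lay at a median of 57.9% of the gene's length from its start, with quartiles of 37.7 and 74.9%, and the density in 10 equal stretches of the gene ranged from 0.718 to 1.16 per Mb without a steady order.

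**Figure D4:**
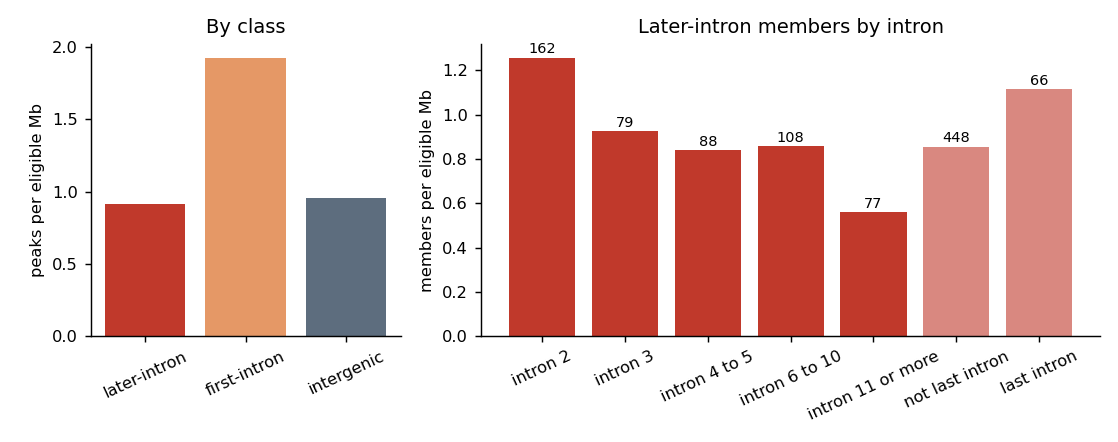
Peaks per Mb of eligible sequence by class (left) and members per eligible Mb by intron number of the host's longest transcript and for last and other later introns (right), with the number of members on each bar. First-intron peaks stand at 1.92 and the members at 0.914, and within the members the bars go from 1.26 in intron 2 to 0.559 from intron 11 on.

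Member introns were long, with a median of 17.2 kb and quartiles of 5.87 and 46.6 kb. The midpoint was a median of 3460 bp from the nearest exon and within 500 bp of one in 100 members, and 89 members had a base in an exon beside a midpoint outside it. The nearest TSS was a median of 12184 bp away, from 3031 bp in *Rrm2*, a ribonucleotide reductase subunit gene, to 716410 bp in *Ptprd*, a receptor phosphatase gene of synapses. It belonged to the host gene for 481 members (87.5%) and to another gene for 69.

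Widths had a median of 673 bp with quartiles of 531 and 982 bp, and the members covered 488 kb in all. The narrowest was in *Glo1*, at the lower limit itself, followed by 322 bp in *Dlg5*, and the widest 2982 bp in *Sntg1*, 2930 bp in *Pfdn1* and 2887 bp in *Ppp2r5c*. Just outside the limits lay peaks of 317 bp in *Arfgef3* and *Med27* and of 3099 bp in *Rara*. Without the width limits there were 762 later-intron peaks, 186 narrower and 26 wider than the members. Just within 3 kb of a TSS lay a later-intron peak of *Acsl6* at 2965 bp.

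Other peaks were less often near the members than near first-intron peaks. Another peak lay within 10 kb, edge to edge, of 219 members (39.8%, 35.8 to 44%) and of 188 first-intron peaks (50.4%, 45.4 to 55.4%). The odds ratio was 0.651, with p = 0.00187 by Fisher's exact test (adjusted p = 0.0108). Among peaks more than 10 kb from every TSS the difference was -3.58 percentage points, members minus first-intron peaks, and did not pass (p = 0.412 by the same exact test). Intergenic peaks were at 42.3% (39.8 to 44.8%; Fisher's exact test, p = 0.336). Peaks of the same neighbourhood are not independent of each other, which none of these tests takes into account.

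For 318 members the nearest other peak had its midpoint within 3 kb of a TSS, for 160 it was another later-intron peak, for 39 intergenic, for 20 in a first intron and for 13 exonic. Within 10 kb it was near a TSS for 107 members and in a later intron for 99. The median gap was 17359 bp, and the longest, 3057175 bp, belonged to the *Ptprd* member.

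The members lay in 450 host genes, of which 382 held 1 member, 45 held 2, 15 held 3, 7 held 4 and 1 held 5. The 68 genes with 2 or more held 168 members (30.5%). Host genes were long, with a median of 89.5 kb against 17.4 kb for all 21938 protein-coding genes, and long genes hold more intron in which a member can lie.

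*Dst*, which encodes the cytolinker dystonin, held 5 members in introns 4, 7 and 9 of 102. They were 1808, 2211, 1013, 745 and 2331 bp wide, and the first 3 lay together in intron 4 with gaps of 1508 and 2109 bp. Of these, 1 held a TFCP2L1 match, 1 an AP-1 match and the member in intron 9 an octamer.

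*Esrrb*, the orphan nuclear receptor gene of the naive pluripotency network, held 4 members of 1400, 712, 445 and 1331 bp, 1 in intron 2 and 3 in intron 3 of 6. They lay at 74.2 to 85.4% of the gene's length, had CpG ratios of 0.0311 to 0.214 and held none of the 6 motif kinds. *Stox2* held 4 members within intron 2, at 40.1 to 45.8% of the gene, 2 of them with an octamer. *Dlc1* held 4 near its end, at 89.3 to 93.3%, each between 505 and 859 bp wide.

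The other hosts with 4 members were *Tns3* (tensin 3 of focal adhesions), *Fnbp1* (a membrane-bending protein), *Cradd* (a death-domain adaptor) and *Etl4*. Widths reached 2598 bp in *Cradd*, 2591 bp in *Fnbp1* and 2252 bp in *Tns3* but not over 946 bp in *Etl4*, the longest of these genes at 901 kb. *Tns3*, *Fnbp1* and *Esrrb* also held a first-intron peak, as did 32 of the 450 hosts.

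**Figure D5:**
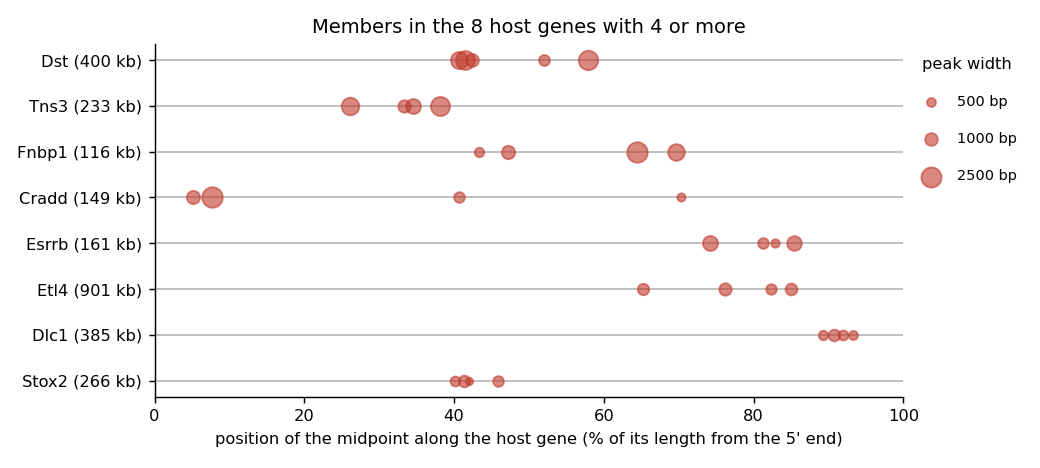
Midpoints of members along the 8 host genes with 4 or more, as percent of the gene's length from its 5' end (x axis), with point area in proportion to peak width and gene length in kb beside each name. In Dlc1 the 4 members sit between 89.3 and 93.3%, and in Stox2 between 40.1 and 45.8%.

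*Cdh1* was among the 15 hosts of 3 members. Its members were 942, 527 and 1843 bp wide, all in intron 2 of 15, and the middle one is the member shown above with AP-1 and TFCP2L1 matches. Another host of 3 was *Sntg1*, a syntrophin gene, with members of 2510, 531 and 2982 bp. The members in *Sntg1* lay 14824 to 123201 bp from the nearest TSS.

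A promoter peak, with its midpoint within 1 kb of a TSS of the gene, was found for 254 of 450 hosts (56.4%) and for 33.9% of all protein-coding genes. By gene length the shares were 56.8% of hosts against 28.7% of genes up to 20 kb, and 42.9% against 21.9% over 200 kb. In 185 hosts no peak reached into the 1 kb around a TSS. In 180 hosts the members were the only peaks inside the gene body. A promoter peak outside the body was not counted there, and *Rbks*, with its member as the only body peak, had a promoter peak. Hosts of later-intron members alone had a promoter peak in 229 of 418 cases (54.8%, 50.0 to 59.5%) and hosts of first-intron peaks alone in 155 of 252 (61.5%, 55.4 to 67.3%), a difference that did not pass (p = 0.0911 by Fisher's exact test, adjusted p = 0.299). Counting peaks that reached into this range with any base, the difference was -13.1 percentage points, members' hosts minus the others (p = 0.000752 by the same exact test).

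Gene lists of stem cell biology and of the study's pathways were read for hosts, as counts beside 2.09% of all 21911 gene names. This share was higher for longer genes, as given below. It rests on 459 gene names, against the 450 hosts given above, where 1 host was used for each member. More than 1 host gene was found for 11 members. Among 25 pluripotency factors, *Esrrb* held its 4 members and *Tfcp2l1* held 1. The *Tfcp2l1* member was 630 bp wide in intron 2 of 14, 14602 bp from the nearest TSS, with 59.0% of its central window masked. Of these 25 genes, 12 had a peak midpoint and 23 some part of a peak less than 1 kb from a TSS, while of 10 markers of feeder fibroblasts none had either and none was a host.

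Of 59 chromatin regulators 5 were hosts. *Tet1*, a dioxygenase of 5-methylcytosine, held 2 members of 536 and 781 bp, the wider 3081 bp from a TSS. *Tet2* held 1 of 537 bp in intron 2 of 10, *Arid1b* and *Smarcc1*, subunits of the BAF remodeler, 1 each of 615 and 555 bp, and *Cbx7*, a Polycomb subunit gene, 1 of 509 bp. Of 7 sirtuins only *Sirt1* was a host, with a member of 664 bp in intron 2 of 13, 15658 bp from the nearest TSS.

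*Utrn* was the only host among the 17 listed genes of the dystrophin complex. The list left out the syntrophin gene *Sntg1*, a host of 3 members. Both *Utrn* members lay in intron 51 of 74. The member of 573 bp (chr10:12573034-12573606) was 24441 bp from the nearest TSS, at a GC content of 41.8% and without a motif match. The member of 1586 bp (chr10:12609185-12610770) was 4853 bp from the nearest TSS, at 44.2%, and held the AP-1 match shown above, which began 101 bp after the midpoint.

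Of the 33 listed genes of LIF, FGF and ERK signalling, *Fgfr1*, an FGF receptor gene, was the only host. Its members of 405 and 876 bp lay in intron 2 of 17, 2016 bp apart. Of 28 Wnt genes, *Tcf7l1* (a repressor of Wnt targets) held 1 member of 574 bp and *Rnf43* (a ubiquitin ligase of Wnt receptors) 1 of 582 bp. None of the 28 listed Nodal and BMP genes was a host. Other hosts, such as *Etv5* with 2 members and *Acvrl1* with 1, were not on these lists.

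Of 33 synaptic and neuronal adhesion genes 5 were hosts, *Lrp1b*, *Ptprd*, *Rbfox1*, *Dpp6* and *Magi2*, with 1 member each. The genes of this list had a median length of 1135 kb, and 1 of the 33 had a promoter peak by its midpoint, or 3 by any base. These members were 447 to 550 bp wide except for 1467 bp in *Ptprd*, and none had another peak within 10 kb. The share of protein-coding genes that were hosts was 0.314% up to 20 kb, 4.89% from 50 to 100 kb and 10.5% over 200 kb. Median gene lengths were 11.9 kb for the pluripotency list, 66.7 kb for chromatin regulators, 58.2 kb for Wnt and 178 kb for the dystrophin complex. The part of gene length in these counts was not tested.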

How the data were processed

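H3K56ac ChIP-seq was performed on V6.5 mESCs that carried a control or a *Sirt6* shRNA. Per the study's methods, the authors trimmed the reads, aligned them uniquely to mm10 with Bowtie, removed duplicates, called peaks with MACS2 and merged overlapping peaks over libraries. No pair of deposited peaks lay closer than 1000 bp, which widths, counts and gaps depend on, and the merging distance is not given in the sources used here. The deposited file gave start and end positions. Its deposited score column held 1 value throughout and was not used. Groups were taken from sample titles, but the file holds no value per library, so no comparison between groups was made.

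Positions are printed counted from 1. Genes were taken from GENCODE M21, and sequences and repeat masking (lower case) from the RefSeq copy of GRCm38, the assembly behind mm10. Exons and TSS were those of all transcripts of protein-coding genes. Where a peak lay in several genes, 1 host was used. Composition and motifs were measured in the central 400 bp with Python 3.11.15, numpy 2.4.6 and pysam 0.24.0. Shares were compared by two-sided Fisher's exact tests (scipy 1.17.1), adjusted over 23 tests, at a threshold of 0.05. The code was tested on simulated data.

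Genes are named as the 8 hosts with 4 or more members, hosts on the lists (up to 4 for some lists), members at the limits of the rule and members with several motif kinds, and any other gene was named after its values were seen. The members, comparisons and lists were chosen with earlier results of these data known. Some listed items are not reported here.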

Additional observations from a re-analysis of the deposited data

How the results depend on the processing

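The tests were repeated with 207 alternatives, of which 175 kept direction and side of the unadjusted threshold of 0.05. All alternatives kept the lower shares of CpG-rich peaks and noncoding TSS against intergenic peaks. Differences are given in percentage points, members minus the other class, each with p from Fisher's exact test. With all widths, the octamer against first-intron peaks was 2.10 (exact p = 0.0193), ESRRB -1.59 (0.0325) and repeats against intergenic peaks -5.30 (0.000278). With basic transcripts, ESRRB was -2.48 (0.000636), GC content against first-intron peaks -2.96 (0.335) and the promoter peak of the host -7.81 (0.0351). With no base in an exon, ESRRB was -1.81 (0.0247). GC content against first-intron peaks was -5.77 (0.0890) in 200-bp windows, 0.50 (0.883) in 1000-bp windows and -5.10 (0.185) with 1 peak for each gene. Beyond 10 kb from every TSS, neighbouring peaks differed by -3.58 (0.412) from first-intron and -7.14 (0.0161) from intergenic peaks. With any base within 1 kb of a TSS, the promoter peak of the host differed by -13.1 (0.000752). In another 19 alternatives the sign changed with p over the threshold both ways (smallest exact p = 0.322). Against first-intron peaks these were AP-1 at 0.66 and CTCF at 0.32 beyond 10 kb, TFCP2L1 at -0.18 beyond 10 kb and -0.11 with all widths, the octamer at -1.70 in 1000-bp windows, CTCF at 0.18 in 200-bp windows, CpG-rich peaks at -0.049 in 200-bp and -0.15 in 1000-bp windows and -0.23 with no base in an exon, repeats at -0.0024 with a limit of 25%, and noncoding TSS at 0.59 within 3 kb. Against intergenic peaks, 1000-bp windows gave 0.50 for AP-1, -1.14 for the octamer, 1.74 for TFCP2L1 and -0.42 for CTCF, all widths gave 0.014 for AP-1, basic transcripts 0.044 for KLF and -0.0067 for CTCF, and 1 peak for each gene -0.18 for CTCF. The cause was not tested for any of these. The alternative with autosomes alone was chosen after seeing the data and changed no call.

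No paired analysis was possible because libraries were pooled in the deposited positions. No replicate was left out, as none has values of its own in the deposited positions. Some listed items are not reported here.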
